A study of Mus musculus with 4 samples.

Results

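The Wnt and Fgf ligand genes are the genes whose symbol is Wnt or Fgf followed by a number, without receptors or binding proteins. Matching RefSeq IDs to symbols gave 51 RefSeq IDs of 41 genes, 19 Wnt and 22 Fgf, among the 30794 IDs counted. RNA-seq was performed on mTEChi, the subset of medullary epithelial cells of the thymus that carries the most MHC class II, sorted as CD45- Ly51- I-A/E high from the thymi of 4-week-old B6 mice. The design held 2 libraries labelled WT and 2 labelled Aire-KO, 1 of each in a first and in a replicate experiment, and each library was made from a pool of 4 mice. The Aire-KO mice are described as deficient for Aire on the B6 background and labelled Aire-/-, a label of the mouse and not of mTEChi alone. The WT mice, in contrast, were purchased from a breeder. Origin of the mice and genotype therefore cannot be told apart. The comparison addressed which ligand genes differed in mRNA level between mTEChi of the 2 labelled genotypes.

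Wnt proteins are lipid-modified secreted ligands. They bind Frizzled receptors, with Lrp5 or Lrp6 as coreceptors in the branch that stabilises beta-catenin. Most Fgf proteins are secreted ligands of the FGF receptor tyrosine kinases, grouped by sequence into subfamilies. Paracrine FGFs act near their source and are held by heparan sulfate, the endocrine FGFs circulate as hormones and need a Klotho coreceptor, and the FGF homologous factors stay inside the cell and bind voltage-gated sodium channels. In the thymus, Wnt signals and the mesenchymal ligands Fgf7 and Fgf10 are known for their part in the growth of the epithelium. Aire, a transcriptional regulator of mTEChi, is known for inducing genes that are otherwise restricted to peripheral tissues.

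The libraries held between 111077552 and 242862323 counts. In CPM (counts scaled to library size with TMM factors), 1 count was worth between 0.00435 and 0.00839. The targeted gene, Aire, was at 398 and 307 CPM under the label WT and at 1381 and 765 CPM under the label Aire-KO, a log2 fold change of -1.61 ± 0.44 (SE, adjusted p = 0.0885, edgeR's quasi-likelihood test), and with the experiment as a block in the model its adjusted p was 0.000448. More Aire reads were thus counted under the label Aire-KO. A count over the whole gene cannot show whether the transcript is intact, so the genotype labels were not checked by it, and libraries are named by their labels throughout. All 12 mTEC markers were detected, the lowest at 21.6 CPM, and 0 of the 12 were called. With the block, 4 of the 12, Cd74, Cd80, Fezf2 and Tnfrsf11a, were lower in WT (all IDs 10.4%). Summed CPM of 11 fibroblast markers was 217 and 216 in WT against 426 and 512 in Aire-KO. Of 9 dendritic cell and macrophage markers in the table, Itgam and Adgre1 were called higher in WT (all IDs 5.58%), while 0 of 12 thymocyte, 0 of 8 endothelium and 0 of 7 cTEC markers were called. With the block, 3 dendritic cell and macrophage, 5 thymocyte and 1 cTEC markers were higher in WT (all IDs 16.5%), and 3 cTEC markers were lower (all IDs 10.4%). Summed CPM of the 8 endothelium markers was 28.9 and 48.8 in WT and 33.9 and 83.8 in Aire-KO. It was highest in the replicate Aire-KO library, and the 2 Aire-KO libraries differed, so that the absence of calls does not show equal levels. In bulk RNA, fewer cells of a type and less RNA per cell cannot be told apart.

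Promoter sequences of the ligand genes that the fit called higher in WT are shown first, with that of Fgf21, the most abundant ligand gene, for contrast. The 120 bases before the RefSeq start site are given 5′ to 3′ on the strand of the gene (build GRCm38.p6). Capitals mark TATAAA, a form of the TATA box, or CCGCCC, the core of the GC box, on either strand.
Fgf3 (chr7:144838492-144838611, plus strand): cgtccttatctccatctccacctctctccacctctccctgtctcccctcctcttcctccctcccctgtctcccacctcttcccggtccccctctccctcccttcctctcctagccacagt
Fgf4 (chr7:144861266-144861385, plus strand): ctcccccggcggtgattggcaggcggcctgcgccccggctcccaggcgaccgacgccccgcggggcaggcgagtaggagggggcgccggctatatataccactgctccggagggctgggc
Fgf6 (chr6:127015422-127015541, plus strand): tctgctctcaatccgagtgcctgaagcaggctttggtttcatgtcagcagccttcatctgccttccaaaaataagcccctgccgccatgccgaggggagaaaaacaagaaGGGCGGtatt
Fgf23 (chr6:127072782-127072901, plus strand): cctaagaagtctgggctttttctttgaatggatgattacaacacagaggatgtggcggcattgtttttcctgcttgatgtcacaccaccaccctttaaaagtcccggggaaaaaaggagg
Wnt8b (chr19:44493352-44493471, plus strand): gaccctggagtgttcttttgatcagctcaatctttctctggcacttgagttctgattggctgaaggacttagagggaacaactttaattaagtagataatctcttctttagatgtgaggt
Fgf21 (chr7:45615491-45615610, minus strand): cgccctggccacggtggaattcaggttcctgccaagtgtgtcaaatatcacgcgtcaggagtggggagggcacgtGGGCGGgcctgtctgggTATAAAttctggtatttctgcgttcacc

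RefSeq promoters of 300 bases, from 250 before to 50 after the start site, were matched for 5 of the 9 genes called higher and for 26 of the other ligand genes. TATAAA was found in 0 of the 5 promoters of called genes, in 11.4% of the 35 promoters of the other ligand genes and in 13.6% of all 32851 promoters. CCGCCC was found in 2 of the 5, or 40.0% (Fgf4 and Fgf6), in 74.3% of the 35 and in 35.7% of all. The median number of CG dinucleotides was 10 in the promoters of called genes, 24 in those of the other ligand genes and 7 in all. Thus the promoters of the other ligand genes were richer in CG than those of the called genes and than promoters at large, with no test made. The promoter of Fgf21 held both motifs within the 120 bases shown.

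Ligand mRNAs spanned a wide range of levels in mTEChi (the plot of CPM by library). On the scale per length, in RPKM (reads per kb of the gene's features, scaled to the library total), 18 of the 41 genes reached 1 or more in both WT libraries and 19 stayed under 1 in both. In the Aire-KO libraries, 13 genes reached 1 RPKM in both. Fgf21, the fasting hormone of the liver, had the highest level, with 188 and 154 RPKM in WT and 413 and 340 in Aire-KO. Its lowest library lay above the highest library of every other ligand gene. Next in WT were Wnt4, with 13.8 and 26.8 RPKM, Wnt10b, with 22.7 and 14.8, Wnt10a, with 16.4 and 17.3, and Fgf14, with 12.9 and 11.6. The WT values of Wnt4, Wnt10b and Wnt10a overlapped, so that their order was not beyond the spread, and Wnt4 was measured without its last exon. Both WT values of Fgf14 lay below those of Wnt10a.

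**Figure D1:**
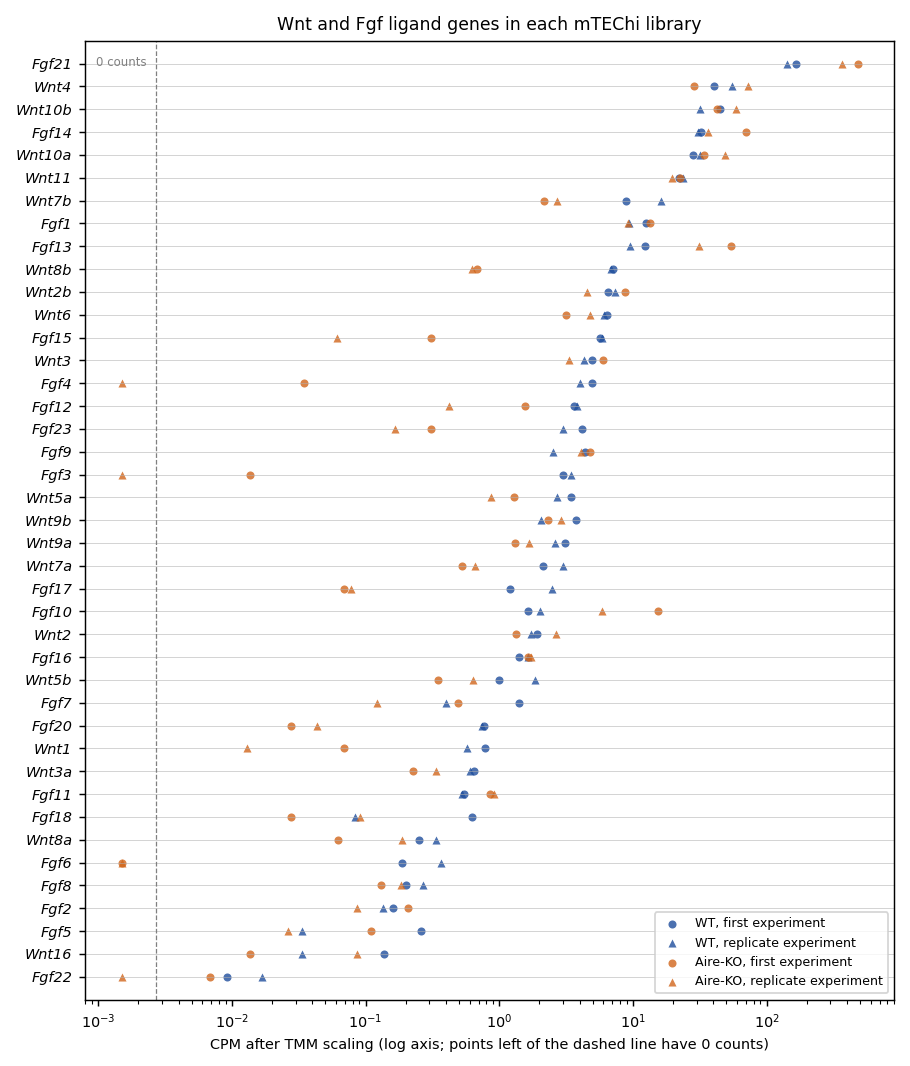
CPM after TMM scaling (x axis, log scale) of each of the 41 Wnt and Fgf ligand genes (y axis, ordered by the WT mean) in the 4 libraries. Blue points are libraries labelled WT and orange points those labelled Aire-KO, with circles for the first and triangles for the replicate experiment. Fgf21 lies highest, and Fgf3, Fgf4 and Fgf6 have libraries with 0 counts among those labelled Aire-KO.

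Of these ligand genes, 9 were called higher in WT than in Aire-KO: Fgf3, Fgf4, Fgf6, Fgf15, Fgf17, Fgf20, Fgf23, Wnt7b and Wnt8b. These are 22.5% of the 40 genes tested (Fgf22, with 0 to 2 counts per library, was not), against 5.58% called higher over all 26790 RefSeq IDs tested. By family, 7 of 21 Fgf genes (33.3%) and 2 of 19 Wnt genes (10.5%) were called higher, and the difference between the families was not tested. No ligand gene was called lower in the edgeR fit (0 of 40, against 0.258% of all IDs), where 3 had an unadjusted p under 0.05 in that direction, and DESeq2 called those 3 lower. The median log2 fold change was 0.84 over the 40 genes, 1.16 over the Fgf and 0.74 over the Wnt genes, beside -0.03 over all IDs, and the median over the 40 genes was 0.35 without the first WT library. For 4 of the called genes, Fgf3, Fgf4, Fgf6 and Fgf20, both Aire-KO libraries lay under the filter on low counts, so that they entered the test through WT alone. All 4 are Fgf genes, so that the share of 33.3% rests in part on them and that of the Wnt genes does not. Among the other 36 genes, 5 (13.9%) were called higher, against 3.61% of the 25089 IDs that did not enter through WT alone. Without the replicate WT library, 5 genes were called higher, as Fgf6, Fgf17, Fgf20 and Wnt7b were lost, and Fgf20 was also lost without the first WT library.

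With the experiment as a block in the model, 13 ligand genes (32.5%) were called higher, the same 9 with Fgf12, Wnt1, Wnt5a and Wnt7a, against 16.5% of all IDs. The block also called Fgf10, Fgf13 and Fgf21 lower (7.5%), against 10.4% of all IDs. By the criterion of a 3-fold change or more within each experiment, with counts under 3 raised to 3, 11 of the 41 genes (26.8%) were higher in WT in both, against 12.7% of all 30794 IDs. These were the 9 called genes with Wnt1 and Wnt7a. Only Fgf13 (2.44%) was at least 3-fold lower in both, against 0.539% of all IDs. Both WT libraries lay above both Aire-KO libraries for 19 of the 40 tested genes (47.5%, all IDs 28.4%) and below them for 6 (15.0%, all IDs 20.9%), and the groups overlapped for 15.

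**Figure D2:**
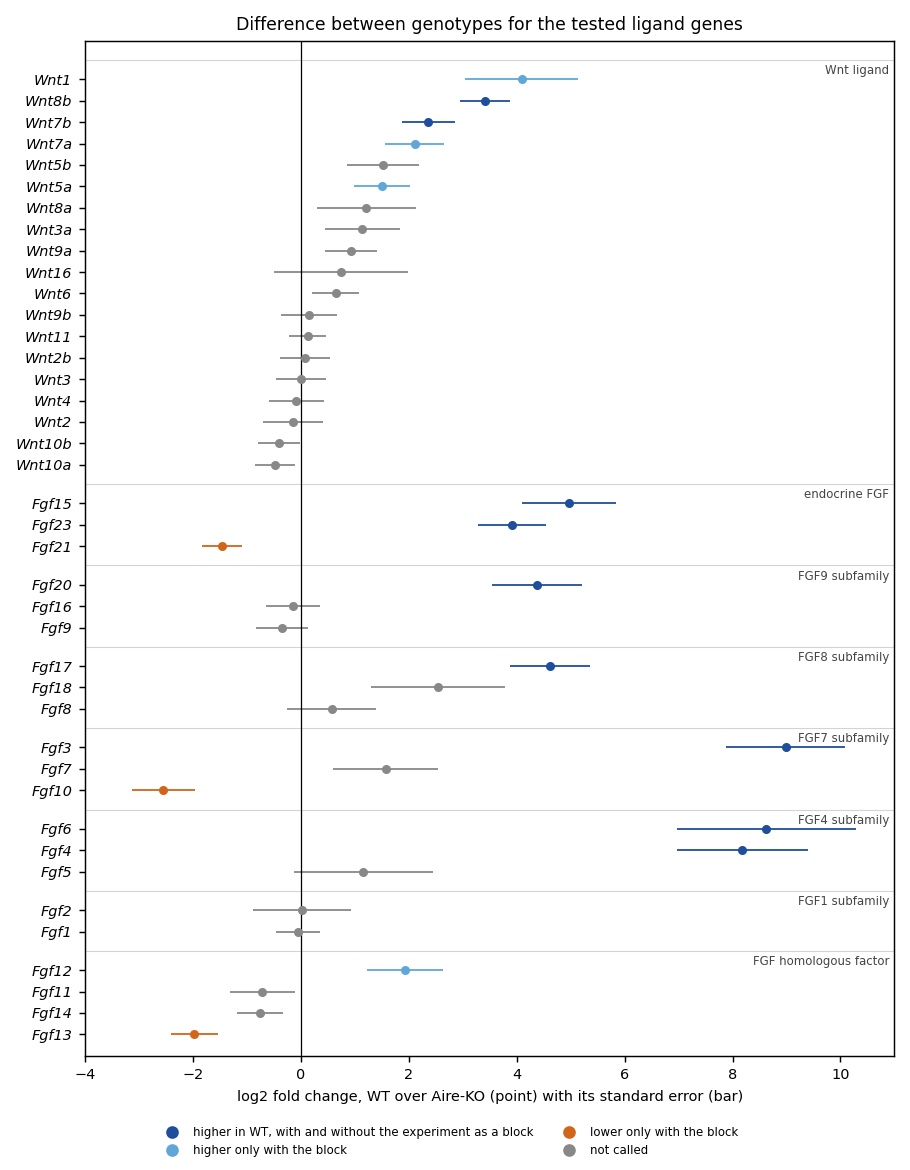
log2 fold change of WT over Aire-KO (x axis; bars are standard errors of the edgeR fit on 2 libraries per genotype) of the 40 tested ligand genes, grouped by subfamily. Dark blue genes were called higher with and without the experiment as a block, light blue genes higher only with it, orange genes lower only with it, and grey genes were not called; Fgf3, Fgf4 and Fgf6 lie above 8.

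In the FGF4 subfamily, Fgf4 and Fgf6 were called higher and Fgf5 was not. Fgf4, a ligand of the early embryo and of the limb bud, had 1089 and 477 counts in WT (4.97 and 4.00 CPM) and 5 and 0 in Aire-KO. The groups were far apart, with a log2 fold change of 8.19 ± 1.22 (SE, adjusted p = 0.0239, edgeR). That value rested on few Aire-KO reads, being 12.73 without the first and 6.99 without the replicate Aire-KO library. Fgf6, a ligand known from skeletal muscle, had 41 and 44 counts in WT (0.187 and 0.369 CPM) and 0 in both Aire-KO libraries. With Aire-KO counts raised to a floor of 3 per library, the mean CPM of Fgf6 was 16.5-fold higher in WT. Within the experiments, the fold with this floor was 9.5 in the first and 28.4 in the replicate one. The adjusted p of 0.0491 (edgeR) lay just inside the threshold. Fgf5, a regulator of the hair cycle, had 57 and 4 counts in WT and 16 and 6 in Aire-KO, so that the groups overlapped (adjusted p = 0.725, edgeR).

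The FGF7 subfamily held genes on both sides. Fgf3, known from inner ear development, had 656 and 408 counts in WT (2.996 and 3.42 CPM) and 2 and 0 in Aire-KO (0.0138 and 0 CPM). Its log2 fold change was 8.98 ± 1.10 (SE, adjusted p = 0.018, edgeR), and 12.25 without the first and 7.78 without the replicate Aire-KO library. Those of Fgf3, Fgf4 and Fgf6 lay within their standard errors of each other. Fgf10, the mesenchymal growth factor for epithelium, went the other way, with 1.64 and 2.01 CPM in WT and 15.5 and 5.90 in Aire-KO. Its libraries did not overlap, and its log2 fold change was -2.55 ± 0.58 (SE, adjusted p = 0.0578, edgeR), with an adjusted p of 0.00117 under the block. Most markers of fibroblasts moved with it: Col1a2, Col3a1 and Dpt of the 11 were called lower in WT (all IDs 0.258%). Of the 11, 7 had both WT libraries below both Aire-KO libraries (all IDs 20.9%). None was at 0, and their median log2 fold change was -1.38. Mfap5 had WT above, with 2.96 and 3.61 CPM in WT and 0.957 and 2.47 in Aire-KO, and Pdgfrb, Col1a1 and Col6a1 overlapped. The part of these cells in the result was not tested. Fgf7, the other mesenchymal ligand of this subfamily, had 1.41 and 0.403 CPM in WT and 0.495 and 0.122 in Aire-KO, with groups that overlapped (log2 fold change 1.57 ± 0.98 SE, adjusted p = 0.463, edgeR).

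In the FGF8 and FGF9 subfamilies 1 gene each was called. Fgf17, a patterning signal of the midbrain and cerebellum, had 262 and 295 counts in WT (1.20 and 2.48 CPM) and 10 and 18 in Aire-KO (0.0688 and 0.0783 CPM). Both WT libraries were far above both Aire-KO libraries, with a log2 fold change of 4.62 ± 0.74 (SE, adjusted p = 0.0282, edgeR), or 4.01 without the replicate WT library. Fgf18, a regulator of cartilage and bone, had 137 counts in the first WT library and 10 in the replicate one, against 4 and 21 in Aire-KO, so that its log2 fold change of 2.55 ± 1.24 (SE, adjusted p = 0.322, edgeR) rested on 1 library and was 0.35 without it. Fgf20, known from the hair placode and the cochlea, had 169 and 89 counts in WT (0.772 and 0.747 CPM) and 4 and 10 in Aire-KO (0.0275 and 0.0435 CPM). The WT libraries differed little from each other and lay above both Aire-KO libraries (log2 fold change 4.37 ± 0.84 SE, adjusted p = 0.0387, edgeR). Fgf20 shares 202 bp of exon with Efha2 on the opposite strand, and reads were counted without strand. Fgf8, Fgf9 and Fgf16 were not called, with log2 fold changes from -0.35 to 0.57.

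The 3 endocrine FGFs differed among themselves. Fgf15, the ileal hormone that represses bile acid synthesis, had 1236 and 696 counts in WT (5.65 and 5.84 CPM) and 45 and 14 in Aire-KO (0.310 and 0.0609 CPM), a log2 fold change of 4.98 ± 0.87 (SE, adjusted p = 0.0336, edgeR), which was 6.54 without the first and 4.20 without the replicate Aire-KO library. Fgf23, the bone hormone that lowers phosphate, had 906 and 356 counts in WT (4.14 and 2.99 CPM) and 45 and 38 in Aire-KO (0.310 and 0.165 CPM), a log2 fold change of 3.91 ± 0.63 (SE, adjusted p = 0.0279, edgeR). Both genes were low in Aire-KO and higher in both WT libraries. Fgf21 had 165 and 143 CPM in WT and 480 and 364 in Aire-KO. Its groups did not overlap in the opposite direction, with a log2 fold change of -1.46 ± 0.37 (SE, adjusted p = 0.0738, edgeR) and an adjusted p of 0.000393 under the block. Fgf15 shares 478 bp of exon with the gene model Gm17685 on the opposite strand, and Fgf10, Wnt5a, Wnt7b and Wnt11 share 38 to 364 bp with such genes.

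None of the 4 FGF homologous factors was called without the block. Fgf13 had 12.3 and 9.54 CPM in WT and 54.6 and 31.2 in Aire-KO, without overlap (log2 fold change -1.97 ± 0.43 SE, adjusted p = 0.0516, edgeR), and an adjusted p of 8.14e-05 under the block. Fgf12 had 3.65 and 3.83 CPM in WT and 1.55 and 0.422 in Aire-KO, likewise without overlap but with WT above (log2 fold change 1.93 ± 0.71 SE, adjusted p = 0.18, edgeR), and an adjusted p of 0.0105 under the block. Fgf14 had 32.3 and 30.8 CPM in WT and 70.2 and 36.5 in Aire-KO (log2 fold change -0.76 ± 0.43 SE, adjusted p = 0.408, edgeR), and Fgf11 was low, with 0.529 to 0.913 CPM. Both WT libraries lay above both Aire-KO libraries for 1 of these 4 genes (all IDs 28.4%) and below them for 3 (all IDs 20.9%). Of those 3, Fgf14 and Fgf11 were not called with the block either. Of the FGF1 subfamily, Fgf1, a broadly acting ligand, had 9.21 to 13.4 CPM and Fgf2 0.0870 to 0.206 CPM, and both overlapped between the genotypes.

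Among the 19 Wnt genes, Wnt7b and Wnt8b were called higher. Wnt7b, known from lung and kidney development, had 1938 and 1948 counts in WT (8.85 and 16.3 CPM) and 315 and 625 in Aire-KO (2.17 and 2.72 CPM). The lowest WT library lay above the highest Aire-KO library, the log2 fold change was 2.37 ± 0.48 (SE, adjusted p = 0.045, edgeR), and all 3 of its RefSeq IDs were called. Wnt8b, known from the embryonic forebrain, had 1542 and 822 counts in WT (7.04 and 6.90 CPM) and 99 and 145 in Aire-KO (0.681 and 0.631 CPM). Within each genotype its libraries were close, and the log2 fold change was 3.41 ± 0.47 (SE, adjusted p = 0.0206, edgeR).

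Wnt1 and Wnt7a passed the 3-fold criterion in both experiments without being called. Wnt1, the signal of the midbrain boundary, had 171 and 69 counts in WT and 10 and 3 in Aire-KO (log2 fold change 4.09 ± 1.05 SE, adjusted p = 0.0745, edgeR), and an adjusted p of 0.0148 under the block. Wnt7a, known from dorsal limb patterning, had 2.14 and 3.004 CPM in WT and 0.530 and 0.661 in Aire-KO (log2 fold change 2.11 ± 0.55 SE, adjusted p = 0.0774, edgeR), and an adjusted p of 0.00922 under the block. Wnt5a, a ligand of the branch without beta-catenin, had 3.46 and 2.72 CPM in WT and 1.30 and 0.870 in Aire-KO (log2 fold change 1.51 ± 0.52 SE, adjusted p = 0.154, edgeR), and an adjusted p of 0.0247 under the block. In these 3 genes both WT libraries lay above both Aire-KO libraries.

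The Wnt genes with the highest levels were not those called. Wnt4, known from kidney development and made by thymic epithelium, had 40.5 and 55.1 CPM in WT and 28.7 and 72.5 in Aire-KO, so that the 2 experiments went opposite ways. Its log2 fold change was -0.08 ± 0.52 (SE, adjusted p = 0.962, edgeR) and turned to 0.18 with library sizes alone. Wnt10b, known from fat and bone, had 45.2 and 31.6 CPM in WT and 42.4 and 59.5 in Aire-KO (log2 fold change -0.41 ± 0.39 SE, adjusted p = 0.674, edgeR). Wnt10a, a tooth and hair ligand, had 28.3 and 31.97 CPM in WT and 34.3 and 49.3 in Aire-KO (log2 fold change -0.47 ± 0.37 SE, adjusted p = 0.582, edgeR). Wnt11, known from ureter branching, had 19.5 to 23.7 CPM in the 4 libraries. The other Wnt genes, Wnt2, Wnt2b, Wnt3, Wnt3a, Wnt5b, Wnt6, Wnt8a, Wnt9a, Wnt9b and Wnt16, had log2 fold changes between -0.14 and 1.52 and adjusted p from 0.266 to 0.998 (edgeR).

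Several ligand genes lie next to each other, and 13 of the 41 form 6 groups of neighbours with gaps under 100 kb and no other protein-coding gene between them in the mm9 annotation. Fgf3 (chr7:152023988-152030341), Fgf4 (chr7:152047291-152051148) and Fgf15 (chr7:152082437-152086858) follow each other on the plus strand with gaps of 16.9 and 31.3 kb, and Fgf6 (chr6:126965560-126974736) and Fgf23 (chr6:127022920-127031426) lie 48.2 kb apart on the plus strand. All genes of these 2 groups were called higher, and they make up 5 of the 9 called genes, where 5.58% of all IDs were called higher. Of these 5, Fgf3, Fgf4 and Fgf6 entered the test through WT alone, and whether calls group by position was not tested. In the other 4 groups none was called: Wnt10b and Wnt1, 11.7 kb apart, had log2 fold changes of -0.41 and 4.09, Wnt6 and Wnt10a 0.65 and -0.47, Wnt3a and Wnt9a 1.14 and 0.93, and Wnt9b and Wnt3 0.15 and 0.01.

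The protein-coding genes on either side of the 2 Fgf groups, chosen after their values were seen, were not called (all IDs 5.58% higher). Ano1, 86.1 kb before Fgf3, had a log2 fold change of 0.43 ± 0.55 (SE, adjusted p = 0.771, edgeR), and Ccnd1, the cyclin 29.0 kb after Fgf15, had -0.48 ± 0.44 (SE, adjusted p = 0.653, edgeR). D6Wsu163e, 39.8 kb before Fgf6, had -0.22 ± 0.37 (SE, adjusted p = 0.833, edgeR), and Ccnd2, 44.4 kb after Fgf23, had -0.72 ± 0.44 (SE, adjusted p = 0.449, edgeR). Whether the ligand genes differed from these flanking genes was not tested.

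**Figure D3:**
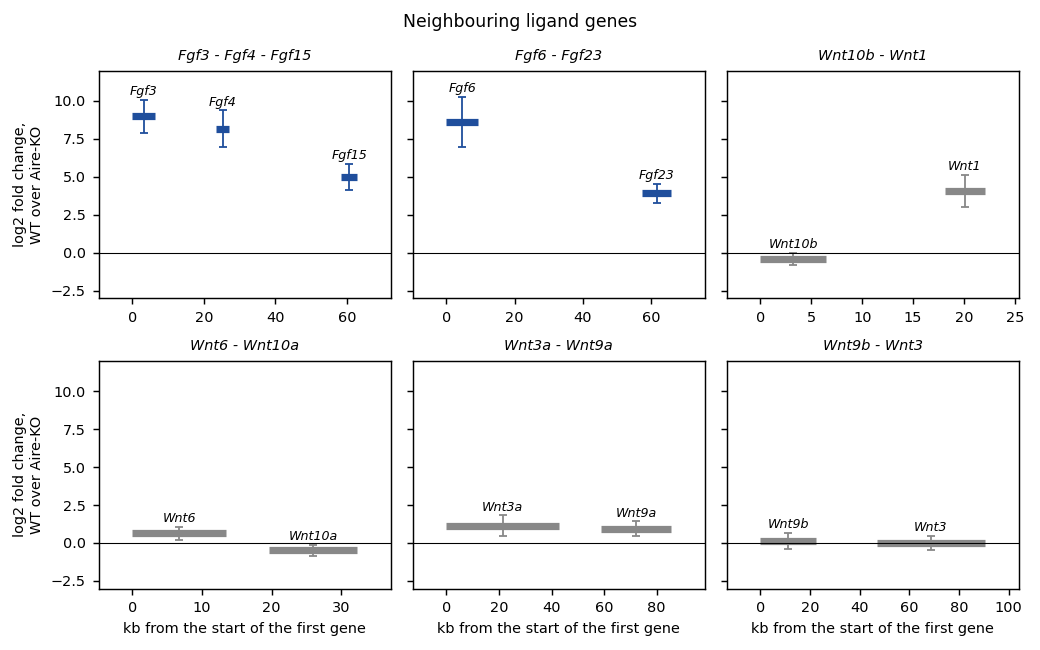
log2 fold change of WT over Aire-KO (y axis, vertical bars are standard errors) of neighbouring ligand genes, drawn to scale by their distance in kb from the start of the first gene of each group (x axis, mm9). Horizontal bars span the genes. Blue marks genes called higher, which are all genes of the Fgf3, Fgf4, Fgf15 group and of the Fgf6, Fgf23 group. Grey marks genes not called. Fgf3, Fgf4 and Fgf6 entered the test through WT alone.

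Beside the ligands, 72 genes of the Wnt and FGF pathways were listed and 71 tested, of which 7 (9.86%, all IDs 5.58%) were called higher and 0 lower (all IDs 0.258%). At an unadjusted p under 0.05, 4 of the 71 were lower, and DESeq2 called 2 lower. The median log2 fold change of the 71 was 0.15. With the block, 16 (22.5%, all IDs 16.5%) were called higher and 11 (15.5%, all IDs 10.4%) lower.

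Of 11 secreted Wnt inhibitors, 3 were called higher. Dkk1, which blocks Lrp6, had 8.82 and 9.46 CPM in WT and 0.599 and 0.331 in Aire-KO (log2 fold change 4.30 ± 0.54 SE, adjusted p = 0.0183, edgeR). Sfrp4, a decoy that binds Wnts, had 457 and 97 counts in WT and 2 and 12 in Aire-KO (log2 fold change 5.37 ± 0.99 SE, adjusted p = 0.0367, edgeR). Both its Aire-KO libraries lay under the filter on low counts, so that Sfrp4 entered the test through WT alone. The share of pathway genes called higher includes it. Notum, which removes the lipid from Wnts, had a log2 fold change of 3.06 ± 0.62 (SE, adjusted p = 0.0437, edgeR). Sfrp1, the inhibitor with the highest CPM, had 121 and 94.2 CPM in WT and 180 and 178 in Aire-KO (log2 fold change -0.73 ± 0.36 SE, adjusted p = 0.324, edgeR), and was called lower under the block (adjusted p = 0.0185). The summed CPM of the 11 inhibitors was 159 and 125 in WT and 190 and 191 in Aire-KO. Of 9 R-spondins, their Lgr receptors and the ligases they act on, 3 were called higher, namely Lgr6 (5.05 ± 0.78 SE), Rspo2 (4.08 ± 0.76 SE) and Rspo4 (5.22 ± 0.99 SE), with adjusted p from 0.0265 to 0.0385 (edgeR). The ligase gene Rnf43 had 36.8 and 23.8 CPM in WT and 75.2 and 50.3 in Aire-KO. With the block it was called lower (all IDs 10.4%) and 4 of the 9 higher (all IDs 16.5%). The summed CPM of the 9 was 119.7 and 62.15 in WT and 161.3 and 92.94 in Aire-KO. Of 9 FGF receptors, coreceptors and binding proteins, Fgfbp1, which releases FGFs from the matrix, was called, with 30.4 and 45.0 CPM in WT and 8.66 and 8.45 in Aire-KO (log2 fold change 2.14 ± 0.39 SE, adjusted p = 0.0359, edgeR).

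The lists without a call were the 15 Wnt receptors, the 2 genes of Wnt secretion, the 11 intracellular Wnt components, the Wnt targets (4 of 5 tested) and the 10 FGF targets. The genes with the smallest p in them were Fzd9, a Frizzled receptor (4.19 ± 1.04 SE, adjusted p = 0.069, edgeR), Porcn, the enzyme that attaches the lipid to Wnts (0.83 ± 0.50 SE, adjusted p = 0.435), the transcription factor Tcf7 (-1.45 ± 0.36 SE, adjusted p = 0.0681), the feedback target Axin2 (-1.09 ± 0.42 SE, adjusted p = 0.207) and the FGF target Etv4 (1.13 ± 0.47 SE, adjusted p = 0.242). The block called 16.5% of all IDs higher and 10.4% lower. Among the 15 Wnt receptors, it called Fzd9 (adjusted p = 0.00911) higher and Fzd1 (0.00208) and Ror1 (0.0042) lower. Among the 10 FGF targets, it called Etv4 (0.0399) higher and Spry2 (0.000553) and Spry4 (0.00967), feedback inhibitors of FGF signalling, lower. The block also called 4 of the 11 intracellular components lower, among them Tcf7 (0.000313), as well as Axin2 (0.00285).

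The d3′UTR ratio, the reads per bp of the distal 3′UTR beyond a proximal polyadenylation site over those of the upstream part of the last exon, could be given for 9 ligand genes. Wnt7b, the called gene among them, had ratios of 1.17 and 1.31 in WT and 1.04 and 0.982 in Aire-KO, each with 110 or more distal reads. Its distal part was thus covered about as densely as the upstream part in all 4 libraries, and its WT ratios lay above its Aire-KO ratios, with 95% exact binomial intervals, which cover counting error only, of 1.06 to 1.29 and 1.184 to 1.441 in WT and 0.805 to 1.33 and 0.818 to 1.176 in Aire-KO. The intervals overlapped in the first experiment and narrowly did not in the replicate one (1.176 against 1.184). They count both mates of a pair as independent reads and can thus be too narrow, so that no difference is read from them. Fgf1 had 0.909 and 0.745 in WT and 0.588 and 0.828 in Aire-KO, and Wnt6 had 0.488 and 0.549 in WT and 0.589 and 0.358 in Aire-KO, both with overlapping groups.

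Fgf12, Fgf14, Wnt11, Fgf7, Fgf10 and Wnt2 had low ratios, from 0 to 0.249 in any library with 20 or more upstream reads. After shortening each feature by the positions where no read of 50 bases can start, Fgf14, whose distal part is 123 bp, had up to 0.364 (first WT library). Fgf10 had 0 distal reads beside 2003 and 1155 upstream reads in Aire-KO, which allowed ratios of up to 0.0122 and 0.0212 by the same kind of interval. The replicate Aire-KO library had the lowest ratio of Fgf12 (0.0229, against 0.133 to 0.195 in the others) and of Fgf14 (0.0354, against 0.121 to 0.224). The median over the ligand genes was 0.224 and 0.121 in WT and 0.133 and 0.0437 in Aire-KO, beside 0.435 and 0.350 in WT and 0.416 and 0.342 in Aire-KO over all IDs with a ratio.

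**Figure D4:**
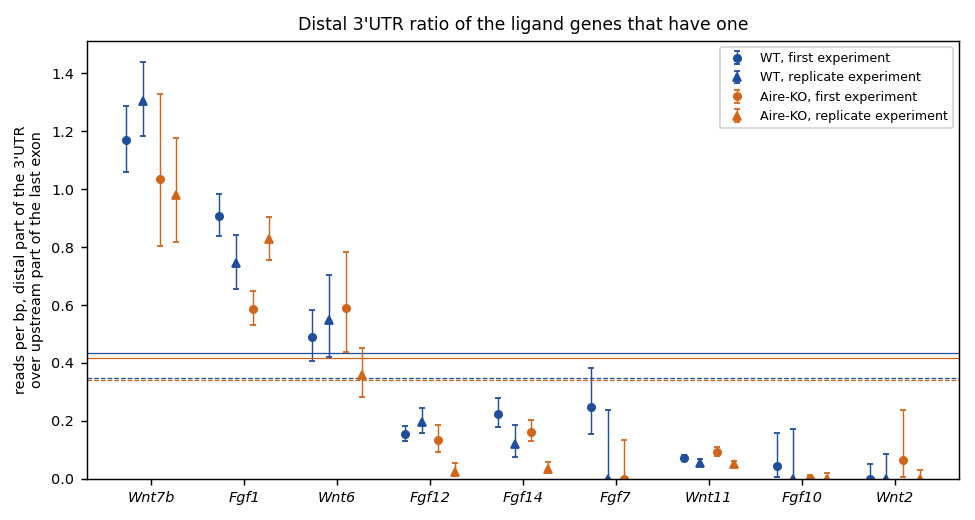
Reads per bp in the distal part of the 3′UTR divided by those in the last exon before it (y axis) for the 9 ligand genes with such a part (x axis), per library, with 95% exact binomial counting intervals as bars. Horizontal lines are the medians over all RefSeq IDs in the libraries of the same colour (solid for the first, dashed for the replicate experiment), and Wnt7b and Fgf1 lie above them in all 4 libraries.

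Coverage along the transcripts was also compared in WT, as reads per bp of the other coding exons over those of the last exon. Fgf4 had ratios of 0.257 and 0.425 and Fgf3 0.288 and 0.527, beside medians of 0.620 and 0.721 over all IDs, whereas Fgf21 had 0.936 and 0.968. Both WT ratios were below the medians for 5 of the 9 called genes and for 8 of 23 other ligand genes. The last exon held 88.7% and 81.5% of the WT reads of Fgf3 and 94.9% and 92.1% of those of Fgf4. It makes up 774 of the 1194 bp of Fgf3 and 2479 of the 3030 bp of Fgf4, so that most reads would lie there under even coverage too.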

How the data were processed

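RNA-seq libraries were made from polyadenylated RNA with a kit that does not mark strand. Per the labels and the study's methods, the authors sequenced paired ends, trimmed the mates to 50 bases, concatenated them as single reads, which are thus not independent molecules, aligned them to mm9 with Bowtie 1.0.0 and deposited raw read counts per RefSeq ID and per exon feature. Samples were grouped by genotype label and experiment. The members and lists were chosen with earlier results of these data known. Symbols came from the RefSeq gene table (29352 of 30794 IDs matched), and each gene was represented by its ID with most counts. Counts of all IDs were fitted with edgeR 4.0.16 in R 4.3.3 (TMM, filterByExpr, quasi-likelihood test of genotype, Benjamini-Hochberg over 26790 IDs, threshold 0.05). Since nothing says more than that each library is 1 pool of 4 mice, p-values measure the spread between 2 pools per genotype. The experiment pairs the libraries by the labels' replicate mark, and deviations of same-experiment libraries correlated at 0.704. Full values are given for called genes, genes past 3-fold in both experiments and the 5 with the highest WT RPKM, and also, chosen after their values were seen, for genes called only with the block and for Fgf5, Fgf7 and Fgf18, with the others by range. For each pathway list, the called genes, or else the one with the smallest p, are named. The d3′UTR ratios took features with 20 or more upstream reads. Alternatives were DESeq2 1.42.0, other scaling, no filter, 1 ID per gene, other ratio lengths and minimums, the block and each library left out. The fit was tested on simulated data.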

Additional observations from a re-analysis of the deposited data

How the results depend on the processing

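The 9 genes called higher were the same 9 with median-of-ratios size factors, no filter and 1 RefSeq ID per gene, and were among the 12 of DESeq2, the 11 with library sizes alone and the 13 with the replicate block. Leaving out 1 library gave 5 to 12 higher and 0 to 2 lower, and where this left 1 library of a genotype, that library was assumed to vary like the others. The 0 lower became 3 with DESeq2 and 3 with the replicate block (Fgf10, Fgf13 and Fgf21), and 2 with median-of-ratios size factors (beside 9 higher) and 2 with no filter on low counts (Fgf10 and Fgf13). Of the pathway genes, 7 higher became 12 with DESeq2, 11 with library sizes alone and 16 with the replicate block, and 5 to 14 without 1 library (14 without the first and 13 without the replicate Aire-KO library). Their 0 lower became 2 with DESeq2, 11 with the replicate block and 0 to 2 without 1 library. Causes were not tested. Library sizes alone shifted the log2 fold changes over all IDs by 0.29 in the median.

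Over single ligand genes, 341 values kept direction and call, 29 gained a call (14 higher, 15 lower), 5 lost one (all higher, on leaving out a WT library) and 25 changed sign, none of them a called gene. Sign changes were Fgf1 (0.27), Fgf16 (0.15), Wnt2 (0.13) and Wnt4 (0.18) with library sizes alone, Fgf2 (-0.024) and Wnt3 (-0.036) with 1 ID per gene, Wnt3 with DESeq2 (-0.011), median-of-ratios size factors (-0.009) and no filter (-0.001), and Wnt4 with the replicate block (0.05). Without 1 library, log2 fold changes ranged from -0.33 to 0.25 for Fgf1, -0.49 to 0.76 for Fgf2, -1.02 to 2.50 for Fgf5, -0.89 to 0.006 for Fgf9, -0.55 to 0.44 for Wnt2, -0.32 to 0.61 for Wnt2b, -0.36 to 0.48 for Wnt3, -0.60 to 0.73 for Wnt4, -0.44 to 0.51 for Wnt9b and -0.74 to 2.60 for Wnt16. The 11 genes past 3-fold became 15 at 2-fold and 10 with a floor of 10 counts, and Fgf6 rests on 41 and 44 counts. The median d3′UTR ratio of the replicate WT library, 0.121, became 0.175 with lengths corrected for read length and 0.158 with 50 or more upstream reads.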

Other observations

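Of the 16 protein-coding genes flanking the 4 Wnt groups, 2 on each side, 1 was called, higher in the libraries labelled WT (all IDs 5.58%). With the block 4 were higher (all IDs 16.5%) and 2 lower (all IDs 10.4%). The called gene was Fev, a transcription factor of serotonin neurons 77.3 kb from Wnt10a, with 182 and 260 counts in WT and 0 and 3 in Aire-KO (log2 fold change 7.51 ± 1.22 SE, adjusted p = 0.0285, edgeR). Both its Aire-KO libraries lay under the filter on low counts, so that Fev entered the test through WT alone. Cdk5r2, which lies between Wnt10a and Fev, was not called (1.11 ± 0.53 SE, adjusted p = 0.314, edgeR). With the block, Fev, Fkbp11, Ddn and Rprml were the genes called higher, and Prkag3 and Cyp27a1, on the other side of Wnt6, those called lower. These genes were chosen after their values were seen.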
